A study of Mus musculus with 6 samples.

Results

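The genes described here encode the proteins of the cytosolic ribosome. They are the rows whose Ensembl mouse gene ID carries a symbol made of Rpl or Rps and a number, with an optional a, l or x at the end, together with Rplp0, Rplp1, Rplp2 and Rpsa. The rule found 81 of the 37991 rows, 49 of the large and 32 of the small subunit. Rows named as pseudogenes and the Rps6k kinases were left out. The rule itself uses names and no measured value, but it was chosen with earlier results of these data known. Rps3a1, Fau and Rack1, which also encode ribosomal proteins, have other names and are given separately. The livers came from FVB mice aged 84 days, 3 of the genotype Ing5 +/+ (WT) and 3 of the genotype Ing5 MommeD48/+ (Het). Poly(A) RNA was sequenced to ask how liver transcripts differ when 1 copy of Ing5, a subunit gene of histone acetyltransferase complexes, carries the MommeD48 mutation. The labels do not give the kind of mutation, nor whether each library came from a separate mouse, so the tests below measure only the spread between these samples.

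Ribosomal proteins are made in the cytoplasm, imported into the nucleolus and assembled there with ribosomal RNA into a small subunit, which decodes the messenger RNA, and a large subunit, which joins amino acids. Their genes are transcribed at high and balanced rates in every growing cell. Most of their mRNAs begin with a C followed by a stretch of C and T, the terminal oligopyrimidine (TOP) motif, through which the kinase complex mTORC1 and the binding protein LARP1 set their translation. In hepatocytes, which secrete most plasma proteins, ribosome content follows feeding.

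The start of the gene is shown first, because the pyrimidine stretch is the sequence that these genes are known for. RefSeq start sites were matched by symbol for 59 of the 81 genes. Each line gives 15 bases before and 15 bases from the start, on the strand of the gene, with the longest unbroken run of C and T near the start in capitals. Rpl35a, Rpl35 and Rplp2 were chosen because their values rank among the largest differences between genotypes, Rps27 because it has a paralog expressed in liver, and Rpl7a, Rpl41 and Rpl22 because their levels followed the other members least or had no difference.
Rpl35a: gcggggcttgCCTTCCTCTTTCCgccatct
Rpl35: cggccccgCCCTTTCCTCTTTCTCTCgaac
Rplp2: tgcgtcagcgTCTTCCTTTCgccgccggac
Rps27: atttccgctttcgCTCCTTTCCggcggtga
Rpl7a: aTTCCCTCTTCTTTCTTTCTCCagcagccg
Rpl41: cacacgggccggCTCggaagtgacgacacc
Rpl22: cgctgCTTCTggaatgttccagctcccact
In GRCm38.p6 these windows lie at chr16:33056467-33056496 (plus strand) for Rpl35a, chr2:39005117-39005146 (minus) for Rpl35, chr7:141447636-141447665 (plus) for Rplp2, chr3:90213634-90213663 (minus) for Rps27, chr2:26910792-26910821 (plus) for Rpl7a, chr10:128549154-128549183 (minus) for Rpl41 and chr4:152324421-152324450 (plus) for Rpl22. The counts were made on mm9, so these positions were used for the sequences alone. Where RefSeq listed several starts, the window with the longest run is shown.

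A run of at least 8 bases made of C and T alone, touching the 20 bases on either side of the start on the sense strand, was present in 32 of the 59 members (54.2%) and in 23.7% of all 27025 symbols with a listed start. The run of Rpl7a spans 21 bases and that of Rpl35 18, whereas the longest in Rpl41 is 3 and in Rpl22 5. Rps21, not shown above, has a longest run of 7, though its log2 fold change between genotypes (0.20) exceeds that of Rpl35 (0.16). Listed starts may differ from those used in liver, so a short run does not show that an mRNA lacks the TOP motif. The letters CTTTCC, which can lie inside such a run, stood within the same distance of the start in 18.6% of members and 2.3% of all symbols. In the whole window of 250 bases before to 50 after the start, read on both strands, CCGGAAG, the core of ETS factor sites, occurred in 42.4% of members and 9.93% of all symbols. Its reverse strand can overlap a C and T run. GCCATCTT, the core of YY1 sites, occurred in 8.47% and 3.19%, GGGCGG, the core of SP1 sites, in 61.0% and 38.2%, and TATAAA in 10.2% and 15.7%. These are matches of letters and not shown to be bound sites.

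Libraries held 19840541 to 22041117 counts, and a gene with no count in a library may hold up to 3, or 0.136 to 0.151 CPM (the count scaled to the library total). Such floors, and the intervals on shares, cover counting error only. Ing5 itself had 182, 228 and 191 counts in WT and 193, 217 and 180 in Het livers 1 to 3. The hepatocyte markers summed to between 80292 and 103871 CPM per liver, erythroid markers to 105 to 285 CPM and T cell markers to 0.590 to 2.21 CPM. In RNA from whole liver, fewer cells of a type and less RNA per cell cannot be told apart. WT liver 3 stood apart from the other WT livers, with 13.4% of its counts on mitochondrial genes against 10.8% to 11.6% elsewhere, and its effect on the comparison between genotypes is given below.

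Ribosomal protein transcripts made up about 1 percent of the counts, and 2 WT livers had less of them than the other 4. The share was 0.908%, 0.914% and 1.02% in WT livers 1, 2 and 3 and 0.986%, 1.04% and 1.01% in Het livers 1, 2 and 3 (exact binomial 95% half-width at most 0.00442 percentage points). WT livers 1 and 2 were lowest, and WT liver 3 lay among the Het livers, so the genotypes overlap. After scaling by TMM, which corrects for composition, the 81 genes summed to 9108, 9150 and 10403 CPM in the WT livers against 10094, 10193 and 9920 CPM in the Het livers. The means were 9554 ± 736 CPM in the WT livers against 10069 ± 138 CPM in the Het livers (SD, n = 3), a ratio of 1.05. The largest sum exceeded the smallest by a factor of 1.14. The WT sums spread more widely than the Het sums, and WT liver 3 lay 1.14-fold above the mean of WT livers 1 and 2. Against WT livers 1 and 2 alone, the Het sums were 1.10-fold higher.

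**Figure D1:**
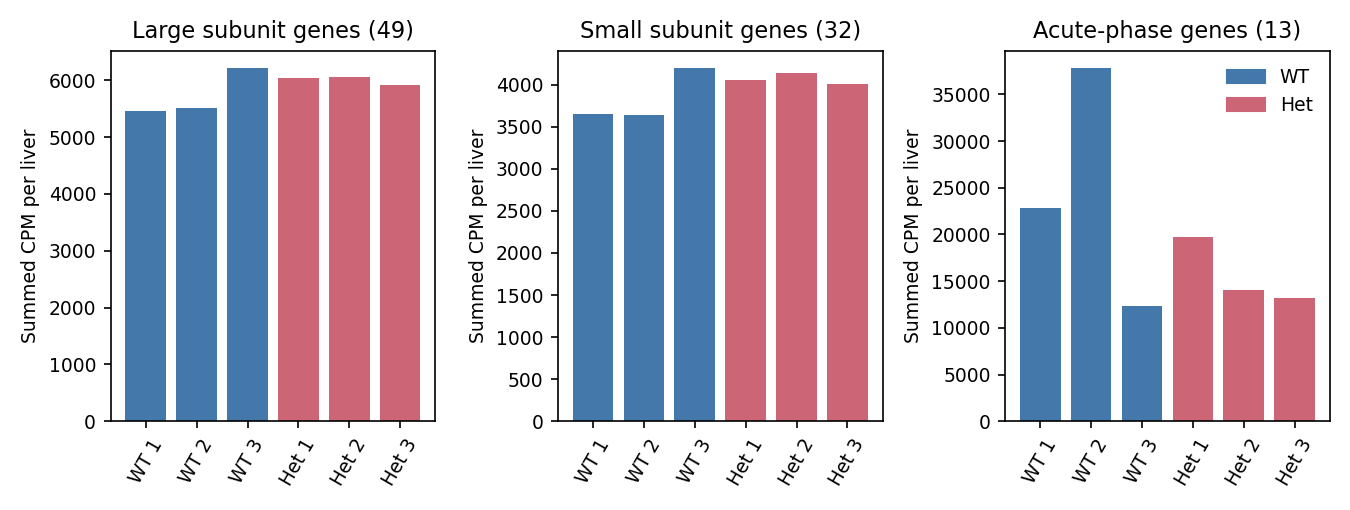
Bars give the summed CPM of the large subunit genes, the small subunit genes and 13 acute-phase genes in each liver, WT in blue and Het in red, with 1 library per bar. Ribosomal protein sums were lowest in WT livers 1 and 2, while the acute-phase sum was highest in WT liver 2, at 37779 CPM, and lowest in WT liver 3, at 12349 CPM.

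The acute-phase genes, which the liver switches on in inflammation, also differed between livers of a genotype, and their values are set beside the ribosomal ones because they ran broadly opposite to them. They summed to 22862, 37779 and 12349 CPM in the WT livers against 19696, 14039 and 13235 CPM in the Het livers, each numbered 1 to 3. The 3 livers with the highest acute-phase sums, WT 2, WT 1 and Het 1, thus include both livers with the lowest ribosomal protein sums. All 13 had a log2 fold change below 0 (median -0.92), and 0 passed. The hepatocyte markers moved with the ribosomal protein genes, with scores (mean over genes of log2 CPM minus the mean of 6 livers) of -0.070, -0.25 and 0.10 in WT and 0.041, 0.11 and 0.063 in Het livers 1 to 3. All 6 had a log2 fold change above 0 (median 0.15), with 0 called, and the 4 tested erythroid markers were all below 0 (median -0.47), with 0 called. The part of the acute-phase, hepatocyte and erythroid differences in the ribosomal one was not tested.

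The small and large subunit genes kept nearly the same proportion in every liver. The small subunit genes summed to 3653, 3644 and 4193 CPM in the WT livers against 4055, 4138 and 4006 CPM in the Het livers. The large subunit genes summed to 5455, 5506 and 6210 CPM in the WT livers against 6039, 6054 and 5915 CPM in the Het livers. The ratio of small to large was 0.670, 0.662 and 0.675 in WT and 0.672, 0.684 and 0.677 in Het livers, with the genotypes overlapping.

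Of the 81 genes, 77 passed the filter on low counts. The others were paralogs with hardly any counts in these livers. Rpl10l, a testis paralog of Rpl10, had 0 counts in all 6 libraries, and Rpl39l, a testis paralog of Rpl39, had 0 in each WT and 1 in each Het library. Rpl3l, a paralog of Rpl3 known from heart and skeletal muscle, had 0, 3 and 0 counts in WT and 0, 1 and 2 in Het libraries. Rpl6l, listed in GENCODE M21 as a processed pseudogene despite its name, had 1, 0 and 0 counts in WT and 0, 1 and 1 in Het libraries. All these values are at or under the floor, so no fold change is given.

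Most of the 77 tested genes followed the same course over the livers. In WT liver 1, 2 of the 77 lay above their own 6-liver mean of log2 CPM, in WT liver 2 4, in WT liver 3 70, and in Het livers 1, 2 and 3 67, 67 and 49. WT liver 1 was the lowest liver for 38 genes and WT liver 2 for 32, while WT liver 3 was the highest for 39. WT liver 3 exceeded both other WT livers in 72 genes, with a median log2 ratio of 0.19 to their mean. It lay above all 3 Het livers in 39 genes and below all 3 in 8. The correlation of each gene with the mean of the other 76, over 6 livers, had a median r of 0.90, and 54 genes exceeded 0.8. For genes outside the members whose mean log2 CPM was 5 or more, r with the member mean had a median of -0.087, and 299 of 3814 (7.84%) exceeded 0.8. All these values come from the same 6 libraries and their scaling, and genes are not independent replicates.

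**Figure D2:**
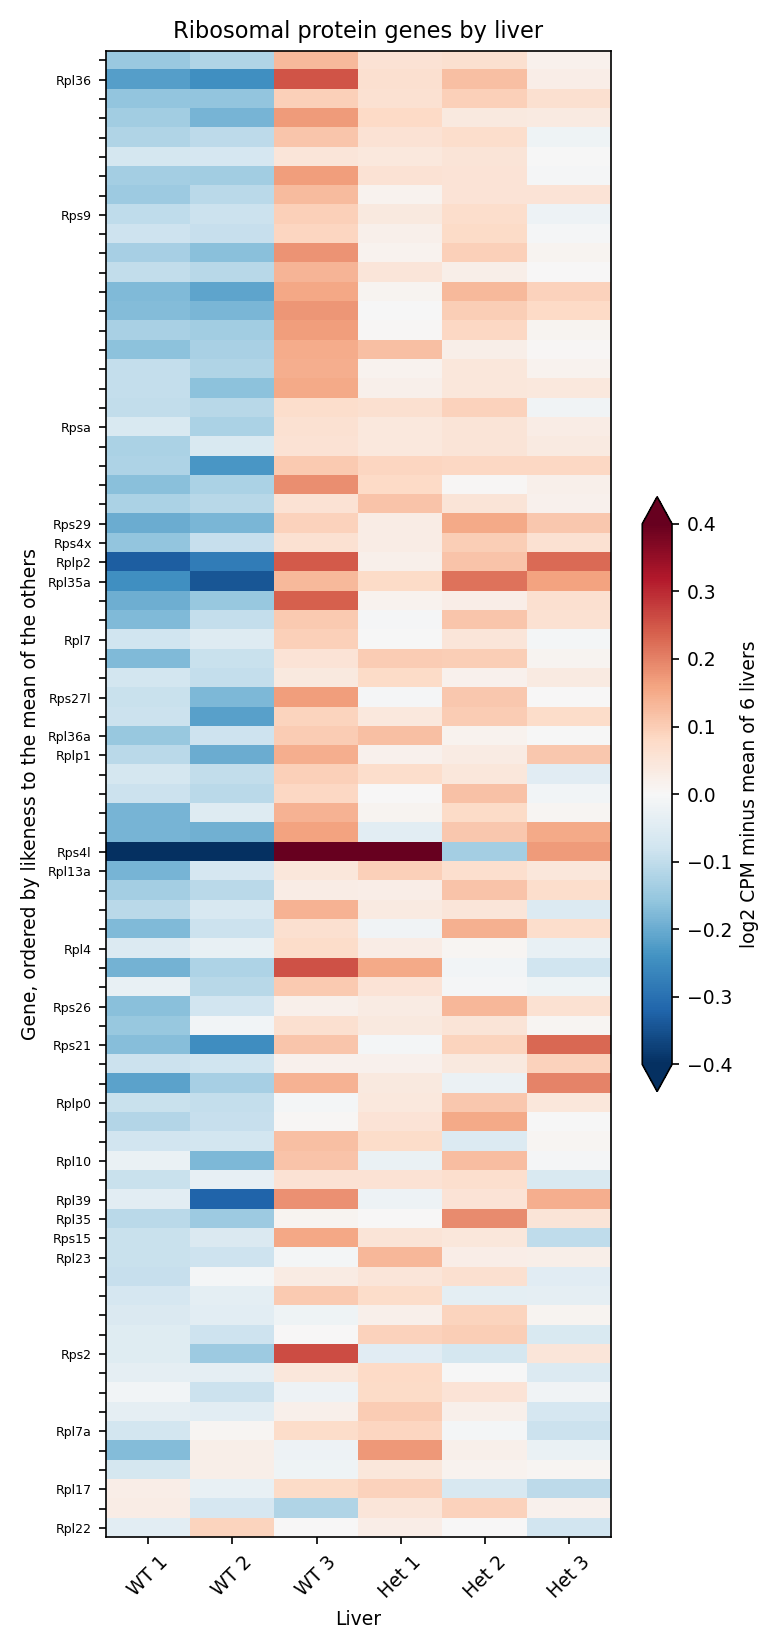
Each row is a tested ribosomal protein gene and each column a liver; colour gives log2 CPM minus the gene's mean of 6 livers, and rows run from the gene most like the mean of the others (r = 0.99) to the least (Rpl22, r = -0.22), with names for the genes chosen by the naming rule. WT livers 1 and 2 are blue in most rows and WT liver 3 is red; Rps4l runs beyond the colour scale.

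A few genes stood outside this course. Rpl22, an RNA-binding protein of the large subunit, had 79.8, 87.5 and 82.2 CPM in the WT livers against 83.6, 82.3 and 77.9 CPM in the Het livers (r = -0.22 with the mean of the others). Its highest value was in WT liver 2, where most members were low. Rpl41, the gene of the smallest ribosomal protein, had 145, 135 and 130.5 CPM in the WT livers against 147, 151 and 143 CPM in the Het livers (r = -0.0023), with its lowest value in WT liver 3. Rpl17 (r = 0.16) and Rpl5 (r = 0.38) followed next. Among the 56 tested members with a RefSeq start, 31 had a C and T run of 8 or more and 25 a shorter run. Their median r was 0.90 and 0.83, with ranges that overlap almost fully (0.38 to 0.98 and -0.22 to 0.97). The median log2 fold changes of Het over WT were 0.091 with the longer and 0.079 with the shorter run.

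Dividing each gene by the summed CPM of the 77 removed much of the variation. The coefficient of variation (SD over mean of the 6 livers) had a median of 7.01% for CPM and 4.01% for the share among ribosomal protein transcripts, and it was smaller for the share in 67 of 77 genes. Counting error alone would give a median of 2.04%. The genes whose share still varied most were Rps4l (31.7%), Rplp2 (12.1%), Rpl35a (10.8%), Rps21 (8.83%) and Rpl39 (8.66%).

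Between genotypes, no ribosomal protein gene passed the test, although most had slightly higher values in Het livers. The edgeR quasi-likelihood test, with p-values adjusted after Benjamini-Hochberg, covered 12631 genes. At an adjusted p under 0.05 it called 0 of 77 members (background 0%), and every member had an edgeR adjusted p of 0.9998. DESeq2 and limma-voom also called 0 members, while over all 12631 genes DESeq2 called 13 and limma-voom 0. At an unadjusted p under 0.05, 1 of 77 (1.3%) was higher in Het livers (background 2.12%) and 0 were lower (background 2.21%). The log2 fold change of Het over WT was above 0 in 71 of 77 (92.2%), against 50.3% of all genes tested. Its median was 0.081 over the members and 0.00088 over all genes, and it ran from -0.055 to 0.29. The members vary together over the livers, so the 71 genes are not independent observations.

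The size of this difference rested on WT livers. The median log2 fold change of the members was 0.16 without WT liver 3, 0.042 without WT liver 1 and 0.047 without WT liver 2, and leaving out a Het liver gave 0.072 to 0.087. Without WT liver 3, 31 members had an unadjusted p under 0.05 (10.8% of all genes tested did), and still 0 passed the adjusted threshold. Fold changes had 95% intervals inside 1.5-fold in either direction for 76 of 77 members (98.7%; 71.1% of all genes), all but Rps4l. Members had a median SE of 0.092, all genes 0.12, on the log2 scale.

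**Figure D3:**
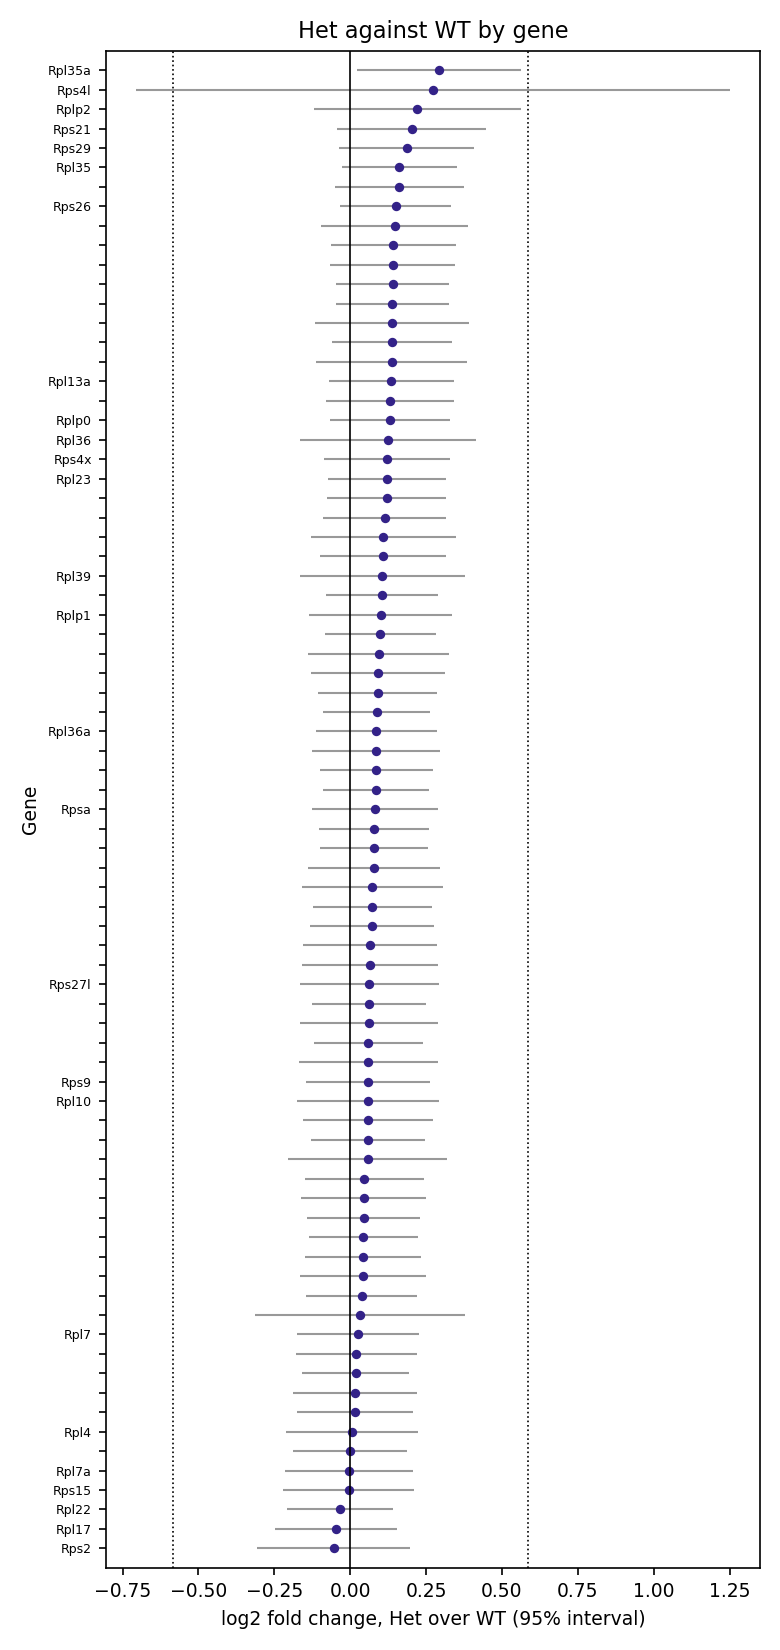
Points give the log2 fold change of Het over WT for the 77 tested genes with 95% intervals from the quasi-likelihood fit (3 against 3 livers); dotted lines mark 1.5-fold, and names are given for the genes chosen by the naming rule. All intervals but that of Rpl35a include 0, and that of Rps4l alone crosses a dotted line.

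Complete separation of the genotypes was seen for 5 members, Rplp0, Rpl9, Rpl23, Rps3 and Rps26, each with all Het values above all WT values (6.49%; background 4.72%), and for 0 in the other direction (background 4.28%). Rps3, a small subunit protein at the mRNA entry channel that also acts in DNA repair, had 180, 182 and 186 CPM in the WT livers against 190.4, 199.7 and 189 CPM in the Het livers, and the gap between the groups is smaller than the spread within the Het livers. Rpl9, of the base of the stalk, had 149.8, 150.4 and 161 CPM in the WT livers against 161, 163 and 169.8 CPM in the Het livers, where WT liver 3 and Het liver 1 were nearly equal. Rpl23, which can bind the p53 regulator MDM2, had 204, 205 and 216 CPM in the WT livers against 238, 221 and 221 CPM in the Het livers. Its log2 fold change was 0.12 (SE 0.087). For each of these 5 genes the exact two-sided permutation p was 0.1, the smallest that 3 against 3 livers allow. Complete separation fixes this value, so it adds nothing to the choice of the genes.

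The members with the smallest unadjusted p were Rpl35a, Rpl35, Rps29, Rps21 and Rps26. Rpl35a (ENSMUSG00000060636), a large subunit gene mutated in some patients with Diamond-Blackfan anaemia, had 25.5, 23.8 and 33.1 CPM in the WT livers against 31.9, 35.2 and 33.8 CPM in the Het livers. WT livers 1 and 2 were low and WT liver 3 lay between the Het values. The log2 fold change was 0.29 (SE 0.12, unadjusted p = 0.036, edgeR adjusted p = 0.9998), and it was 0.45 without WT liver 3 (adjusted p = 0.12) and 0.20 without WT liver 2. Rpl35, a protein at the exit of the nascent chain, had 49.8, 48.5 and 54.1 CPM in the WT livers against 53.7, 61.3 and 55.6 CPM in the Het livers, where Het liver 1 falls just below WT liver 3. Rps29, a small zinc-binding protein of the small subunit, had 105, 106 and 129 CPM in the WT livers against 123, 134 and 130 CPM in the Het livers. In Rps29 too, WT liver 3 sat among the Het livers.

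Rps21, a small subunit protein, had 53.7, 50.8 and 65.2 CPM in the WT livers against 59.98, 64.2 and 70.9 CPM in the Het livers, with overlap. Rps26, a small subunit protein at the mRNA exit channel, had 72.4, 77.1 and 82.5 CPM in the WT livers against 83.2, 89.2 and 85.0 CPM in the Het livers. The Rps26 groups do not overlap, but WT liver 3 and Het liver 1 differ by less than 1 CPM. The log2 fold changes were 0.20 (SE 0.11) for Rps21 and 0.15 (SE 0.082) for Rps26, and neither passed. That of Rps21 was 0.32 without WT liver 3 and 0.13 without WT liver 2.

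The stalk of the large subunit, which recruits translation factors, is built from Rplp0, Rplp1 and Rplp2. Rplp0 had 247, 246 and 261 CPM in the WT livers against 270.3, 283 and 271 CPM in the Het livers, without overlap (log2 fold change 0.13, SE 0.088). Rplp1 had 172, 161 and 205 CPM in the WT livers against 187, 189 and 199 CPM in the Het livers, where WT liver 3 was the highest of all. Rplp2 had 56.1, 58.1 and 83.6 CPM in the WT livers against 71.6, 76.4 and 82.6 CPM in the Het livers, with a coefficient of variation of 16.7% against 5.62% for Rplp0 and 8.91% for Rplp1. Its log2 fold change was 0.22 (SE 0.15), and it was 0.43 without WT liver 3, 0.11 without WT liver 1 and 0.14 without WT liver 2. Rpl36, another large subunit gene of wide range, had 53.8, 52.9 and 74.6 CPM in the WT livers against 65.6, 68.1 and 63.8 CPM in the Het livers, with WT liver 3 highest.

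The most abundant transcript was Rpl4, a protein lining the exit tunnel, with 395, 402 and 432 CPM in the WT livers against 419, 413 and 402 CPM in the Het livers. It was almost level between genotypes (log2 fold change 0.006, 95% interval -0.21 to 0.22; -0.025 without WT liver 1). Rpsa, which is also known as a laminin receptor, had 248, 237 and 270.1 CPM in the WT livers against 267, 269 and 264 CPM in the Het livers. Rpl7a had 231, 245 and 257 CPM in the WT livers against 259, 242 and 229.6 CPM in the Het livers. Rpl7a thus ran through the same range in both genotypes. The log2 fold changes of the other most abundant members were 0.12 for Rpl23 and Rps4x, 0.14 for Rpl13a, 0.025 for Rpl7 and 0.059 for Rps9, each with overlap except in Rpl23.

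Of the 6 members with a log2 fold change below 0, Rps2 had the lowest, at -0.055 (SE 0.11). Rps2, a small subunit protein at the mRNA entry, had 149, 139 and 184 CPM in the WT livers against 149, 146 and 159 CPM in the Het livers, with the highest value in WT liver 3. Without that liver its log2 fold change was 0.074. Rpl17, at the exit tunnel, had 181, 174 and 187 CPM in the WT livers against 189.5, 170.1 and 165 CPM in the Het livers (log2 fold change -0.048, SE 0.090). Rpl22, Rps15 and Rpl7a had log2 fold changes of -0.034, -0.0054 and -0.0053, and Rpl23a of -0.001.

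The X-linked members Rpl10, Rpl36a, Rpl39 and Rps4x all had log2 fold changes above 0, of 0.059 to 0.12, and none passed. Without WT liver 2, those of Rpl10 and Rpl39 were -0.012 and -0.015. Rpl10, which completes the subunit joining site, had 244, 219 and 269 CPM in the WT livers against 244, 270.3 and 248 CPM in the Het livers, with full overlap. Rpl39, a very short protein of the exit tunnel, had 48.0, 39.5 and 56.1 CPM in the WT livers against 48.7, 51.2 and 54.6 CPM in the Het livers. WT livers 2 and 3 set both ends of the range of Rpl39. Rpl36a had 53.7, 56.4 and 64.1 CPM in the WT livers against 64.9, 60.3 and 59.7 CPM in the Het livers, with overlap. The 12 members known as Diamond-Blackfan anaemia genes in human had a median log2 fold change of 0.064. All 12 were above 0, with 0 called. Over all 77 tested members, 71 were above 0 and the median was 0.081. Rpl5, Rpl11 and Rpl23, which bind MDM2 when ribosome assembly is disturbed, had log2 fold changes of 0.044, 0.060 and 0.12. The 9 genes of proteins around the exit of the nascent chain had a median of 0.017, with 6 above 0.

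Rps27l and Rps4l were the only paralogs tested. Rps27l, a close relative of Rps27 that is also a p53 target, had 93.8, 88.1 and 112 CPM in the WT livers against 99.5, 108 and 99.9 CPM in the Het livers. Rps27 had 106, 108 and 115 CPM in the WT livers against 119.6, 128 and 115 CPM in the Het livers. Both genes were therefore transcribed at like CPM, and per kilobase of transcript Rps27 was at 334 and Rps27l at 201 CPM. The log2 fold changes were 0.063 (SE 0.10) for Rps27l and 0.14 (SE 0.083) for Rps27. Rps4l, which GENCODE M21 lists as a transcribed processed pseudogene, had 6.94, 6.67 and 15.9 CPM in the WT livers against 14.6, 9.34 and 11.6 CPM in the Het livers. The coefficient of variation of Rps4l, 35.9%, was the highest among the members, and its fold change has a 95% interval of -0.71 to 1.25 on the log2 scale.

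Levels were compared between genes per kilobase of the annotated principal transcript (GENCODE M21), which 76 tested members had. The median was 159 CPM per kilobase, and the 10th and 90th percentiles were 76.5 and 264. Rplp1 was highest, at 372 CPM per kilobase, and Rpl29, a large subunit protein, lowest, at 8.35. Rpl29 had 107, 119 and 137 counts in WT and 137, 127 and 114 in Het libraries, far fewer than its partners. Rps15a and Rps20 followed at 18.2 and 30.2 CPM per kilobase, but their annotated transcripts of 5130 and 3706 bases are the longest of the set.

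Mouse ribosomal protein genes have many processed copies, so the share of each transcript that is unique was measured. A median of 55.0% of the 50-base windows of a member's transcript also occurred in an annotated transcript of another gene, overlapping neighbours included. For Rps27 it was 98.6%, with Rps27rt ranked first among the 9 genes that share windows, and for Rpl29 66.6%, spread over 84 other genes. Over the 76 members the Spearman correlation of this share with CPM per kilobase was 0.13. How reads matching several places were counted is not given in the sources used here, so counts of members with much shared sequence are uncertain.

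**Figure D4:**
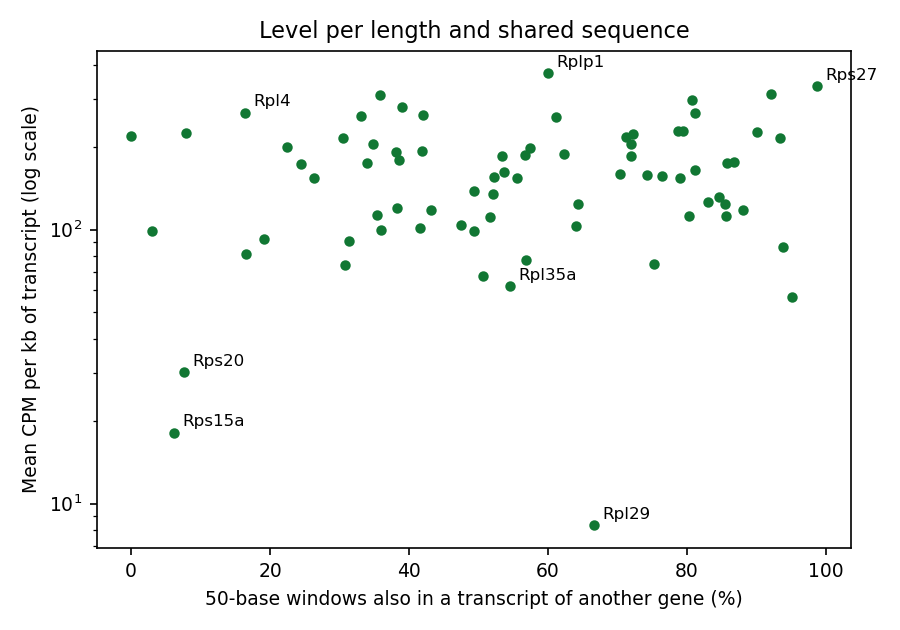
Each point is a tested member; the horizontal axis gives the percentage of its 50-base transcript windows found in transcripts of other genes and the vertical axis, on a log scale, its mean CPM per kilobase. Rpl29 lies far below the rest at 66.6% shared, while Rps27, at 98.6%, is among the highest.

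The rows named as ribosomal protein pseudogenes took few counts, apart from Rps18-ps3 and Rps2-ps13. Of 195 such rows, 96 had a count of 0 in all libraries and 82 had 1 to 10 counts in all. Rps18-ps3 had 1405, 1625 and 1516 counts in WT and 1501, 1693 and 1416 in Het libraries, and Rps2-ps13 had 1202, 1180 and 1263 in WT and 1139, 1179 and 1177 in Het libraries. Together these 2 rows held 90.03% of the counts of the 195 rows. Copies under other names, such as those beginning with Gm, are not among these rows, and their counts were not summed. Added to its pseudogene row, Rps2 had 206, 192 and 249 CPM in the WT livers against 203, 200.4 and 216 CPM in the Het livers, and Rps18 157, 161 and 189 CPM in the WT livers against 176, 179 and 171 CPM in the Het livers. The log2 ratio of Het to WT means was -0.063 for the Rps2 sum and 0.052 for the Rps18 sum, against -0.055 and 0.094 for the genes alone.

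Other genes of ribosomal proteins, outside the name rule, were also followed. Rps3a1, chosen after its values were seen, had 196, 208 and 218 CPM in the WT livers against 220.1, 227 and 214 CPM in the Het livers. Fau, whose product is cleaved into a small subunit protein, had 68.7, 67.6 and 94.9 CPM in the WT livers against 77.2, 84.2 and 83.1 CPM in the Het livers, with WT liver 3 highest. The log2 fold changes of Rps3a1, Fau and Rack1 were 0.088, 0.081 and 0.073, and 0 of these 3 passed. Among paralogs outside the rule, Rpl22l1, the paralog of Rpl22, had 10.02, 8.26 and 18.7 CPM in the WT livers against 14.8, 13.4 and 21.2 CPM in the Het livers (log2 fold change 0.42, SE 0.35), while Rpl7l1 was nearly level at 0.004 (SE 0.075).

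Translation factor genes had medians closer to 0 than the members, and few followed the course of the members over livers. Of 7 elongation factor genes 0 passed and 6 had a log2 fold change above 0 (median 0.029). Eef1a1, which brings aminoacyl-tRNA to the ribosome, had 3896 ± 194 CPM in the WT livers against 3965 ± 245 CPM in the Het livers (SD, n = 3), and Eef2, which moves the ribosome along, 1236 ± 158 and 1241 ± 55.7 CPM. Eef1b2, the exchange factor of Eef1a1, had 137, 132 and 142 CPM in the WT livers against 150.3, 143 and 144 CPM in the Het livers, without overlap (log2 fold change 0.091, SE 0.080). Of 30 initiation factor genes 0 passed, 10 were above 0 and the median was -0.027. Eif4g2, which takes the place of the scaffold Eif4g1 on some mRNAs, had 562, 576 and 498 CPM in the WT livers against 511, 513 and 536 CPM in the Het livers. Its r with the member mean, -0.97, was the lowest of the 30, and over all tested genes outside the members r reached -0.99. The correlation with the member mean over the 6 livers had a median of 0.070 for elongation and -0.070 for initiation factors, and it exceeded 0.8 in 0 of 7 and 2 of 30. Of 17 other mRNAs known to carry a TOP motif 3 exceeded 0.8, Tpt1 among them. The median r of these 17 was 0.19, with a range of -0.74 to 0.99, and their median log2 fold change was -0.0064.

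Genes that build ribosomes had medians below 0. Of 43 ribosome biogenesis genes 0 passed and 18 were above 0, with a median of -0.033. The nucleolar protein genes Ncl and Npm1 had 188 ± 6.43 and 116 ± 7.76 CPM in the WT livers against 179 ± 15.9 and 113 ± 9.13 CPM in the Het livers. Wdr12, which acts in large subunit processing, had an unadjusted p of 0.036 (log2 fold change -0.24, SE 0.099, edgeR adjusted p = 0.9998). Of 12 RNA polymerase I genes 0 passed and the median was -0.054, and of 4 snoRNA host RNAs, which include Gas5, 0 passed and the median was -0.088.

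Of 19 genes of mTORC1 and TOP control 0 passed and the median was 0.026. Larp1, which binds the TOP motif, had 104 ± 10.3 CPM in the WT livers against 113 ± 10.3 CPM in the Het livers, and Deptor, an mTOR inhibitor, 162 ± 21.2 and 175 ± 1.03 CPM. Max, the partner of MYC, and Mxd1, which competes with MYC for Max, had log2 fold changes of -0.28 (SE 0.11) and 0.29 (SE 0.12), with edgeR adjusted p = 0.9998 for each. The correlation of this list with the member mean had a median of -0.42.

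Mitochondrial ribosomal protein genes, which encode the separate ribosome of mitochondria, had a median correlation of 0.63 with the member mean. The list score, the mean over genes of log2 CPM minus the 6-liver mean, was -0.060, -0.11 and 0.14 in WT and 0.045, -0.0099 and 0.0013 in Het livers. For the cytosolic genes it was -0.12, -0.12 and 0.10 in WT and 0.052, 0.059 and 0.026 in Het livers. In both lists WT liver 3 was highest and WT livers 1 and 2 lowest. Of 76 mitochondrial ribosomal genes 0 passed, 41 were above 0 and the median was 0.0049, and 20 (26.3%) had r over 0.8 with the cytosolic mean. The genes of the mitochondrial genome had a score of 0.23 in WT liver 3 and -0.12 to -0.015 in the other livers. The part of this difference in the scores of WT liver 3 was not tested.

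**Figure D5:**
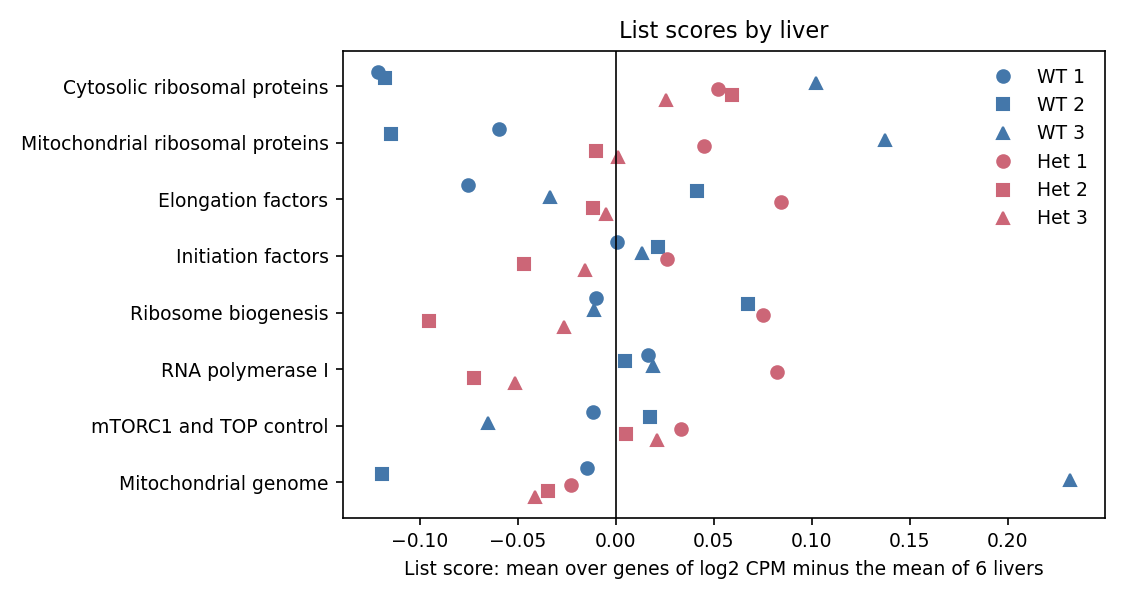
Points give the score of each list in each liver, WT in blue and Het in red, with the marker shape for the liver number; the horizontal axis is on the log2 scale. Cytosolic ribosomal proteins ran from -0.12 in WT livers 1 and 2 to 0.10 in WT liver 3, with the Het livers between.

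Among 3767 tested genes outside all ribosomal protein rows whose mean log2 CPM was 5 or more, the course over livers most like the member mean was that of Tpt1 (r = 0.99). Tpt1 encodes the translationally controlled tumour protein and is a classic TOP mRNA, though the median r of the 17 listed TOP mRNAs was 0.19. It had 633, 633 and 736 CPM in the WT livers against 714, 718 and 683 CPM in the Het livers, so that WT livers 1 and 2 were again lowest. Next came Amdhd1, an enzyme of histidine breakdown, with 122, 114 and 159 CPM in the WT livers against 152, 152 and 148 CPM in the Het livers, and Nfib, a transcription factor gene, both with r = 0.98. They were followed by Idh3g, Srsf5, Gm13841, Hint2, Proc, Atp5d and Zbtb11 (r = 0.97 to 0.98). With 6 livers and so many genes, correlations of this size are the extreme of a list ranked by likeness.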

How the data were processed

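RNA from 6 livers was sequenced as Illumina TruSeq libraries, per the labels' protocols. Each deposited table lists whole-number read counts by Ensembl gene, not normalised, from TopHat2 2.0.11, HTSeq 0.6.1 and DESeq with build mm9, per the submitters' processing notes, which give no role. Strand, annotation release and treatment of multiple matches are not given in the sources used here. Symbols were matched by ID for 32919 of 37991 rows; the rows without one held 0.554% to 0.823% of counts. Genotype and number came from the titles.

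Counts were filtered with filterByExpr, scaled by TMM (factors 0.977 to 1.02) and fitted with edgeR 4.0.16 (R 4.3.3), robust quasi-likelihood, genotype as sole factor, Benjamini-Hochberg adjustment over all genes, threshold 0.05. SE and 95% intervals derive from the F statistic. Log2 CPM for scores and for correlations of the members and the 10 genes most alike used a prior count of 2. For other correlations with the member mean, a small constant was added to the CPM of the gene instead. The procedure was tested on simulated data. No library copied another (chi-square per degree of freedom 9.33 to 72.1). Alternatives, with DESeq2 1.42.0 and limma-voom (limma 3.58.1) among them, are given in the closing section. Transcript lengths and 50-base windows came from GENCODE M21, start sequences from RefSeq (GRCm38.p6). Genes named were the 10 most abundant members, the 5 smallest p per direction, any past the threshold (0), stalk, X-linked and paralog members, the 5 most variable, those of each pathway list chosen by abundance and p and the 10 genes most alike; Rps3a1, Rps3, Rpl9, Rpl5, Rpl11, Rpl23a, Rpl29, Rpl41, Rps15a, Rps18 and Rps20 were named after their values were seen. Rps27, outside these choices as well, was named because it has a paralog expressed in liver. Members and lists were chosen with earlier results of these data known. A few genes are not reported here by name, and counts and medians include them.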

Additional observations from a re-analysis of the deposited data

How the results depend on the processing

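The count of ribosomal protein genes past the adjusted threshold was 0 under every alternative run, and the count with a log2 fold change above 0 was 61 to 75 of 77 (73 of 80 without a filter). With no filter on low counts 1 gene of the whole table passed and with DESeq2 13, against 0 in the main edgeR fit, and leaving out 1 liver gave 0 to 17 genes. Members with an unadjusted p under 0.05 numbered 1 with all livers and 0 to 31 with a liver left out. Their median log2 fold change was 0.042 to 0.16 with a liver left out and 0.11 with library sizes taken without the 20 most abundant genes, where the median of all genes was 0.026. The log2 ratio of summed CPM was 0.076, and 0.038 to 0.14 with a liver left out.
With the replicate block 71 members were above 0, with a median of 0.083 and 0 called. The deviations of same-numbered livers had r of -0.025, -0.078 and 0.22, and those of other WT and Het pairs -0.22 to 0.25. The labels do not state pairs, and the numbers were not read as such. Single genes near 0 took the other sign, none past the threshold: Rpl7a and Rps15 had log2 fold changes of 0.019 and 0.019 with library sizes without the 20 most abundant genes. With a liver left out, log2 fold changes ran from -0.025 to 0.046 for Rpl4, -0.012 to 0.13 for Rpl10, -0.051 to 0.035 for Rpl7a, -0.013 to 0.081 for Rpl7, -0.14 to 0.074 for Rps2, -0.067 to 0.0048 for Rpl22, -0.055 to 0.074 for Rps15, -0.0076 to 0.17 for Rps27l and -0.015 to 0.24 for Rpl39. The same range was 0.11 to 0.43 for Rplp2, 0.13 to 0.32 for Rps21, 0.13 to 0.29 for Rps29, 0.10 to 0.21 for Rpl35, 0.0996 to 0.20 for Rps26, 0.029 to 0.21 for Rplp1, 0.037 to 0.30 for Rpl36 and 0.055 to 0.80 for Rps4l, each highest without WT liver 3. The cause was not tested.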
